A study of Homo sapiens with 11 samples.

Results

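Binding of ZFP36L2 to the mRNAs of 6 regulators of cell death was examined in the acute myeloid leukaemia lines MOLM13 and THP1. The genes were BCL2, BCL2L1, MCL1, CFLAR, BCL2L11 and PMAIP1, and a peak was assigned to one of them when the gene name in the authors' deposited tables matched. All 6 were among the 6881 gene names in the tables, which list only enriched peaks, so every name has at least 1. Together they held 53 of 67083 peaks, namely 11 and 17 in MOLM13 replicates 1 and 2 and 12 and 13 in THP1 replicates 1 and 2.

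The BCL2 family controls whether the outer mitochondrial membrane is breached and apoptosis begins. BCL2, BCL2L1 (as its long product BCL-XL) and MCL1 hold back the pore-forming proteins BAX and BAK1. BIM, the product of BCL2L11, binds and opposes these survival proteins, whereas NOXA, the product of PMAIP1, mainly opposes MCL1. CFLAR encodes c-FLIP, which restrains the initiator caspase at death receptors. BCL2 and MCL1 are known survival factors of myeloid leukaemia cells. ZFP36L2 belongs to the TIS11 family of zinc finger proteins, which bind AU-rich elements of 3' UTRs and promote mRNA decay.

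Binding was measured by eCLIP, in which ultraviolet light links proteins to RNA, the protein is immunoprecipitated and the attached RNA fragments are sequenced. In each line, 2 libraries were made with the anti-ZFP36L2/TIS11D antibody and 2 with IgG. MOLM13 had 2 inputs and THP1 had 1, each a 2% portion of the lysate taken before immunoprecipitation. The labels give no treatment or engineered change for either line. They say that library preparation was done in duplicate and do not mention separate cultures, so spread between duplicates may be technical. No read depth is given by these sources. As a check of the lines, clusters were listed within the coordinates of 6 of 8 myeloid marker genes in each immunoprecipitate and of 0, 1, 0 and 1 of 6 lymphoid ones, which gives presence and no RNA level. The myeloid genes without a cluster were CD14 and ITGAM in both MOLM13 libraries and MPO and CD14 in both THP1 libraries.

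A pair of measurements is given for a peak, both taken from the authors' deposited tables: the log2 fold of the immunoprecipitate over input and over IgG. A peak or cluster was called enriched when its log2 fold and its −log10 p both reached 3. The input tables hold only peaks past both values, so a site without a peak has an unknown fold over input below that limit or a weaker p. The IgG lists also hold clusters that were not enriched, although a few peaks over input have no identical cluster there. Peaks that touched or overlapped on 1 strand in any of the 4 immunoprecipitates were joined into sites, numbered from the 5' to the 3' end of each gene. Where a library had several peaks in a site, the highest log2 fold was used. Values are given for MOLM13 replicates 1 and 2 and then for THP1 replicates 1 and 2, and coordinates are 1-based on hg38.

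The 53 peaks formed 17 sites, of which 14 lay in 3' UTRs and 3 in distal introns of BCL2. By peak, 46 were annotated as 3' UTR (86.8%, against 18.6% of all peaks), 6 as distal intron and 1 as noncoding exon. Log2 folds over input lay between 3.01 and 6.04. A peak over input was present in all 4 libraries at 7 of the 17 sites (41.2%), against 34% of all 19914 sites. For 3' UTR sites these shares were 42.9% and 28.4%. BCL2, MCL1, CFLAR and PMAIP1 each had 1 such 3' UTR site, BCL2L11 had 2, BCL2 had a further one in an intron and BCL2L1 had none. In each line 5 of the 6 genes had a 3' UTR peak overlapping between replicates, where 9.61% of genes with clusters had one in MOLM13 and 9.77% in THP1. Counting peaks of any region that passed over IgG too in each replicate, 4 of the 6 genes qualified in MOLM13 and 5 in THP1, against 11.4% and 19.4% of genes with clusters. By peak of replicate 1, 8 of 11 recurred in replicate 2 of MOLM13 and 10 of 12 in THP1, beside 78.4% and 81.8% of all peaks. Among 3' UTR peaks 7 of 9 recurred in MOLM13 and 9 of 10 in THP1, beside 74.7% and 76.3%. Of the recurring peaks, 4 of 8 passed over IgG in both MOLM13 replicates and 7 of 10 in both THP1 replicates, beside 27.2% and 45%. Counted from replicate 2, only 9 of 17 peaks recurred in replicate 1 of MOLM13 and 11 of 13 in THP1, beside 83.9% and 85.1% of all peaks. For 3' UTR peaks it was 8 of 16 in MOLM13 and 9 of 11 in THP1, beside 75.2% and 77.7%. Of these recurring peaks of any region, 5 of 9 in MOLM13 and 8 of 11 in THP1 passed over IgG in both replicates, beside 27% and 47.1%. These IgG shares over all peaks and genes cover every region, while most peaks of the 6 genes were 3' UTR. In each library 3' UTR peaks passed over IgG more often than all peaks, as with 59.1% against 45% in MOLM13 replicate 1. The part of region in the IgG shares was not tested. For peaks of any region, the MOLM13 share that recurred lay near that of all peaks from replicate 1 and below it from replicate 2. For 3' UTR peaks the MOLM13 share that recurred lay below only when counted from replicate 2. Sites of the same gene share their transcript, and the genes were chosen with earlier results known, so these shares are descriptions and were not tested.

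**Figure D1:**
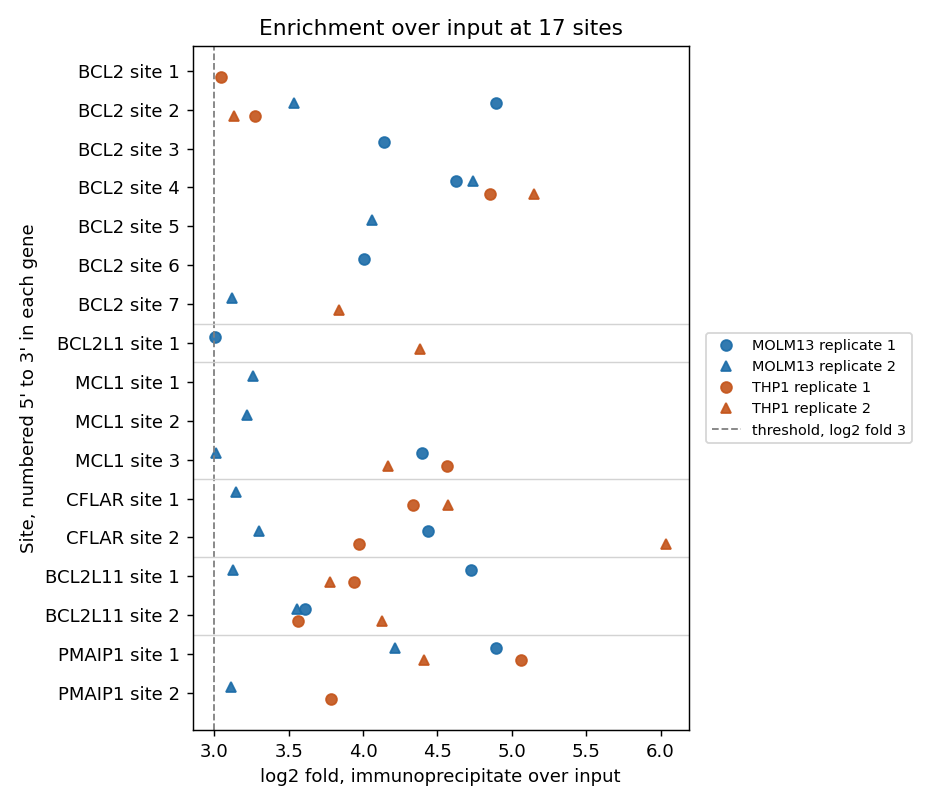
Log2 fold of the immunoprecipitate over input (x axis) at the 17 sites (rows), 1 point per library, circles for replicate 1 and triangles for replicate 2, with the threshold of 3 as a dashed line. Sites without a point in a library had no enriched peak there. CFLAR site 2 reached 6.04 in THP1 replicate 2, and all other points lay between 3.01 and 5.15.

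BCL2 (ENSG00000171791.12), the founding survival gene of the family, had 1 3' UTR site that was enriched over both controls in every library. At chr18:63128268-63128398 on the minus strand (site 4), the log2 fold over input was 4.62 and 4.74 for MOLM13, and 4.85 and 5.15 for THP1. The means were 4.68 ± 0.083 for MOLM13 and 5.0 ± 0.21 for THP1 (SD, n = 2 each). Its −log10 p over input, 67.8 and 54.0 for MOLM13, and 41.2 and 51.0 for THP1, exceeded the best value of 92.5%, 89.7%, 87.6% and 90.3% of the genes with a 3' UTR peak in the same library. By fold, the gene's best 3' UTR peak exceeded 71.5%, 71.7%, 73.2% and 80.5% of them. Over IgG the same site reached 4.12 and 4.12 for MOLM13, and 5.41 and 5.95 for THP1, so it passed both controls in all 4 libraries. The site lies 4922 bases before the annotated 3' end of the gene.

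The other 3' UTR sites of BCL2 were found in fewer libraries. Site 7 at chr18:63124241-63124334, only 895 bases from the 3' end, had 3.12 over input in MOLM13 replicate 2 and 3.84 in THP1 replicate 2. Its log2 fold over IgG was 2.83 and 3.57 for MOLM13, and 2.36 and 4.06 for THP1, so replicate 2 of each line passed both controls and replicate 1 passed neither. Site 5 at chr18:63125770-63125922 was enriched over input only in MOLM13 replicate 2 (4.06). Over IgG the highest cluster at site 5 had 4.19 and 2.71 for MOLM13, and 2.87 and 3.08 for THP1. It passed in MOLM13 replicate 1 and THP1 replicate 2, which had no peak over input there, so no library passed both controls. Site 6 at chr18:63124618-63124638, with 4.01 over input in MOLM13 replicate 1, had 0.70 and 0.92 over IgG in MOLM13 and 1.80 and 2.62 in THP1, and thus passed IgG in no library.

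Within the introns of BCL2, 1 site was common to all libraries. At chr18:63171922-63172010 (site 2), 48576 bases before the 3' end, the log2 fold over input was 4.89 and 3.54 for MOLM13, and 3.27 and 3.13 for THP1. Its fold over IgG was above 3 everywhere, at 3.91 and 3.18 for MOLM13, and 3.61 and 3.13 for THP1, but the −log10 p reached 3 only in replicate 1 of each line (4.06 and 2.47 in MOLM13, 3.59 and 2.16 in THP1). The intronic sites 3 (chr18:63164944-63164999, 4.14 in MOLM13 replicate 1) and 1 (chr18:63279647-63279734, 3.05 in THP1 replicate 1) were enriched over input in 1 library each and over IgG in none. BCL2 is a long gene with 260 and 240 clusters in MOLM13 and 171 and 160 in THP1. The peaks over input equalled 1.92% and 2.5% of these clusters in MOLM13 and 1.75% and 1.88% in THP1, against 10.3%, 7.89%, 12.6% and 13.1% of all clusters in the same libraries. Over IgG, 1.15% and 0.833% of its clusters passed in MOLM13 and 2.92% and 2.5% in THP1, against 5.11%, 2.49%, 5.74% and 8.36% of all clusters. Most clusters on BCL2 RNA were therefore enriched over neither control.

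BCL2L1 (ENSG00000171552.12), which encodes BCL-XL and by alternative splicing a shorter death-promoting form, showed no peak overlapping between replicates of a line. A single site at chr20:31664633-31664725 on the minus strand, 181 bases from the 3' end of the gene, was enriched over input in MOLM13 replicate 1 (3.01) and in THP1 replicate 2 (4.38). The MOLM13 value lay at the bottom of its list, where 0% of genes had a lower best 3' UTR fold, and the THP1 value exceeded the best fold of 61.2% of genes. Clusters were listed there in the other libraries too, and the log2 fold over IgG was 3.02 and 1.40 for MOLM13, and 2.63 and 1.79 for THP1. None of these passed over IgG, since the −log10 p over IgG was at most 1.86.

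MCL1 (ENSG00000143384.12), which encodes a survival protein with rapid turnover, had a 3' UTR site enriched over input in all 4 libraries. The site at chr1:150575080-150575232 on the minus strand (site 3, 522 bases from the 3' end) had log2 folds over input of 4.39 and 3.01 for MOLM13, and 4.56 and 4.17 for THP1. The means were 3.70 ± 0.98 for MOLM13 and 4.37 ± 0.28 for THP1 (SD, n = 2 each), and the lines overlapped. Over IgG, the highest cluster at the site had 2.56 and 2.77 for MOLM13, and 4.17 and 3.82 for THP1, so the IgG threshold was passed in both THP1 replicates and in neither MOLM13 replicate. In THP1 replicate 2 the passing peak was a neighbour with 3.55 over input, while the peak with 4.17 over input had 2.43 over IgG.

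Further upstream in the MCL1 3' UTR, the controls disagreed. Site 2 at chr1:150575719-150575867 had a peak over input in MOLM13 replicate 2 alone (3.22). Over IgG it reached 3.51 and 3.63 for MOLM13, and 2.94 and 3.25 for THP1, and passed in 3 of the 4 libraries. Site 1 at chr1:150576022-150576088 was likewise enriched over input in MOLM13 replicate 2 alone (3.26), with 1.76 and 1.49 over IgG in MOLM13 and 3.46 and 3.09 in THP1. Both THP1 values of site 1 passed over IgG although neither library had a peak over input there.

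CFLAR (ENSG00000003402.19), the inhibitor of death receptor signalling, carried 2 sites with 1713 bases between them. Site 2 at chr2:201167061-201167158 on the plus strand had log2 folds over input of 4.44 and 3.30 for MOLM13, and 3.97 and 6.04 for THP1. The means were 3.87 ± 0.81 for MOLM13 and 5.0 ± 1.46 for THP1 (SD, n = 2 each), the widest spread between replicates among the 7 sites found in all libraries. Over IgG this site had 3.43 and 3.53 for MOLM13, and 2.71 and 3.45 for THP1, and missed the threshold in THP1 replicate 1. In replicate 1 of both lines the IgG value is that of an overlapping cluster. The tables annotate it as 3' UTR in 3 libraries and as noncoding exon in THP1 replicate 2, where the value of 6.04 is found.

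The upstream CFLAR site 1 at chr2:201165278-201165347 was present in both THP1 replicates and in 1 of MOLM13. Its log2 fold over input was 3.15 in MOLM13 replicate 2 and 4.33 and 4.57 in THP1, with a THP1 mean of 4.45 ± 0.17 (SD, n = 2). Over IgG it had 2.02 and 1.21 for MOLM13, and 3.09 and 4.57 for THP1, and it passed in both THP1 replicates. Both sites lie far from the end of the longest annotated gene model, at 11340 bases for site 1 and 9529 for site 2.

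BCL2L11 (ENSG00000153094.22), which encodes the death activator BIM, had 2 adjacent 3' UTR sites with only 74 bases between them, and both were enriched over input in every library. Site 1 at chr2:111166832-111166963 on the plus strand had 4.73 and 3.13 for MOLM13, and 3.94 and 3.78 for THP1. Site 2 at chr2:111167038-111167203 had 3.61 and 3.55 for MOLM13, and 3.56 and 4.12 for THP1. At both sites the lines overlapped, with means of 3.93 ± 1.13 for MOLM13 and 3.86 ± 0.11 for THP1 at site 1 and of 3.58 ± 0.042 for MOLM13 and 3.84 ± 0.40 for THP1 at site 2 (SD, n = 2 each).

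Over IgG the pair was also enriched, with 1 exception. Site 2 had log2 folds over IgG of 3.21 and 3.20 for MOLM13, and 5.13 and 5.44 for THP1, and passed in all 4 libraries. Site 1 had 3.74 and 2.77 for MOLM13, and 4.11 and 4.51 for THP1, and missed the threshold in MOLM13 replicate 2. All 9 BCL2L11 peaks lay in these 372 bases of the 3' UTR, and none of the other clusters of the gene (7 to 14 clusters per library in all) was enriched over input.

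PMAIP1 (ENSG00000141682.11), which encodes the MCL1 antagonist NOXA, had its sites close to the 3' end of the gene. Site 1 at chr18:59903940-59904090 on the plus strand, 215 bases from the 3' end, had log2 folds over input of 4.89 and 4.22 for MOLM13, and 5.06 and 4.41 for THP1. The means were 4.55 ± 0.48 for MOLM13 and 4.74 ± 0.46 for THP1 (SD, n = 2 each), and the lines overlapped. Over IgG it reached 3.91 and 3.86 for MOLM13, and 5.08 and 4.99 for THP1, and passed in all 4 libraries. By fold over input, the gene's best 3' UTR peak exceeded that of 77.9% and 53.7% of genes with such a peak in MOLM13 and of 78.2% and 63.0% in THP1. Site 2 lay 88 bases downstream at chr18:59904179-59904265, with 3.11 in MOLM13 replicate 2 and 3.78 in THP1 replicate 1. Its log2 fold over IgG was 3.34 and 1.76 for MOLM13, and 2.54 and 3.38 for THP1, with a −log10 p under 3 in every library.

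The other genes ranked lower in some libraries. The best 3' UTR fold over input of BCL2L11 exceeded that of 74.0% and 22.9% of genes for MOLM13, and of 42.0% and 50.8% for THP1. For MCL1 these shares were 64.2% and 12.3% for MOLM13, and 65.1% and 53.3% for THP1. For CFLAR they were 65.3% and 14.2% for MOLM13, and 58.2% and 67.5% for THP1. By fold, these 3 genes thus lay near the low end of the list in MOLM13 replicate 2. By best −log10 p over input in that library, MCL1 exceeded 79.2% and BCL2L11 73.4% of genes, whereas CFLAR exceeded 30.3%. The median fold of the 3' UTR peaks of the 6 genes was 4.39 and 3.24 for MOLM13, and 4.44 and 4.17 for THP1. For all 3' UTR peaks it was 3.97 and 4.04 for MOLM13, and 4.05 and 4.02 for THP1, so the 6 genes lay below it only in MOLM13 replicate 2.

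**Figure D2:**
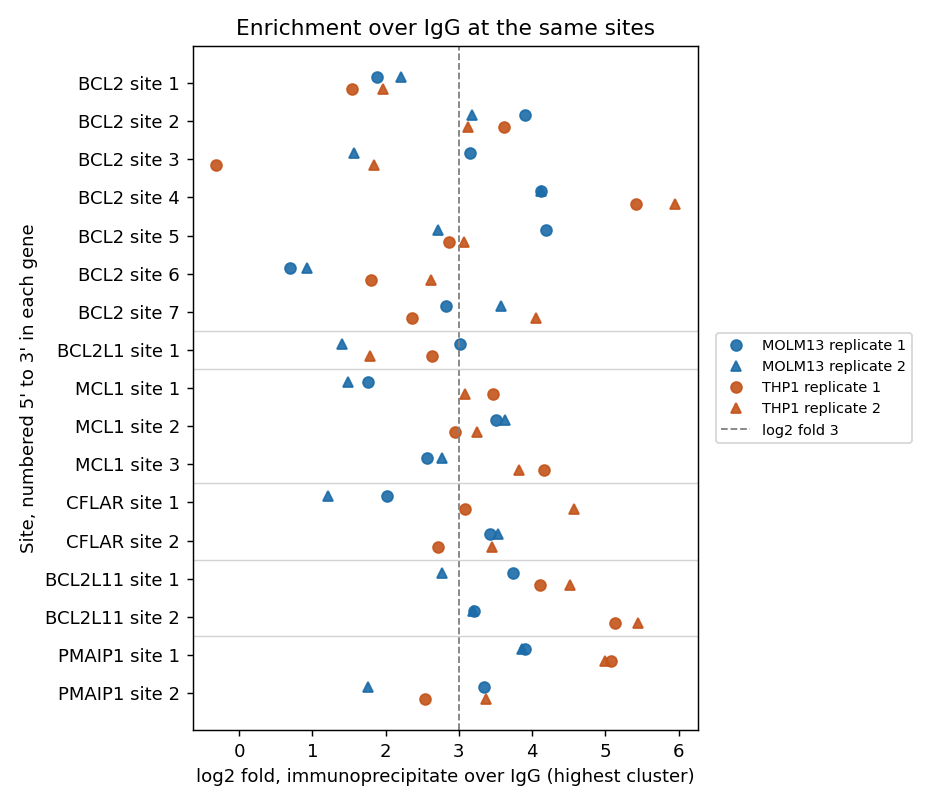
Log2 fold over IgG (x axis) of the highest cluster at each of the 17 sites (rows), 1 point per library, circles for replicate 1 and triangles for replicate 2, with 3 marked by a dashed line. BCL2 site 4, BCL2L11 site 2 and PMAIP1 site 1 lie to the right of the line in all 4 libraries and also passed the limit on −log10 p.

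IgG gives the background of the immunoprecipitation. Of the 7 sites with a peak over input in all libraries, 3 were enriched over IgG in all 4 as well, against 22.6% of all such sites. These 3 were among the 6 such sites in 3' UTRs, where the share over all genes was 49.8%. They were site 4 of BCL2, site 2 of BCL2L11 and site 1 of PMAIP1. By peak, 31 of the 53 passed over IgG, being 6 of 11 and 7 of 17 for MOLM13 and 8 of 12 and 10 of 13 for THP1. For all peaks these shares were 45% and 28.1% for MOLM13 and 43.2% and 59.1% for THP1. Among 3' UTR peaks, 5 of 9 and 7 of 16 passed in MOLM13 (55.6% and 43.8%) and 7 of 10 and 9 of 11 in THP1 (70% and 81.8%). The corresponding shares of all 3' UTR peaks were 59.1% and 49.7% for MOLM13, and 54.5% and 65.2% for THP1. Neighbouring peaks of 1 site enter these counts separately.

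The log2 fold was higher over input than over IgG for 37 of the 53 peaks. All of these peaks had to reach 3 over input, with no such limit over IgG, which favours the input fold. The share over all peaks is not given here, so the count is not read as a trait of the 6 genes. Among 3' UTR peaks the median difference, input fold minus IgG fold, was 0.99 and 0.35 for MOLM13, and 0.32 and −0.28 for THP1, beside 0.99, 1.35, 1.24 and 0.68 for all 3' UTR peaks of the same libraries. The widest differences belonged to BCL2 site 6 in MOLM13 replicate 1 (3.31) and to CFLAR site 2 and BCL2L1 in THP1 replicate 2 (2.59 each). At BCL2L11 site 2 in THP1 the fold over IgG was the higher one, with differences of −1.56 and −1.32. Where both folds divide the same immunoprecipitate signal, their difference reflects the 2 controls and their scaling alone. Its most frequent value in a library was shared to 4 decimals by 22.9% and 23.9% of peaks in MOLM13 and 32.1% and 39.5% in THP1, and by 9 of the 53 peaks here. Other values recurred too and are not in that count. In MOLM13 replicate 2, peaks of BCL2 sites 2 and 5, both BCL2L11 sites and PMAIP1 site 1 shared a difference of 0.35491. Many peaks on different RNAs thus had 1 common difference between controls, and the read numbers behind it were not analysed here.

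**Figure D3:**
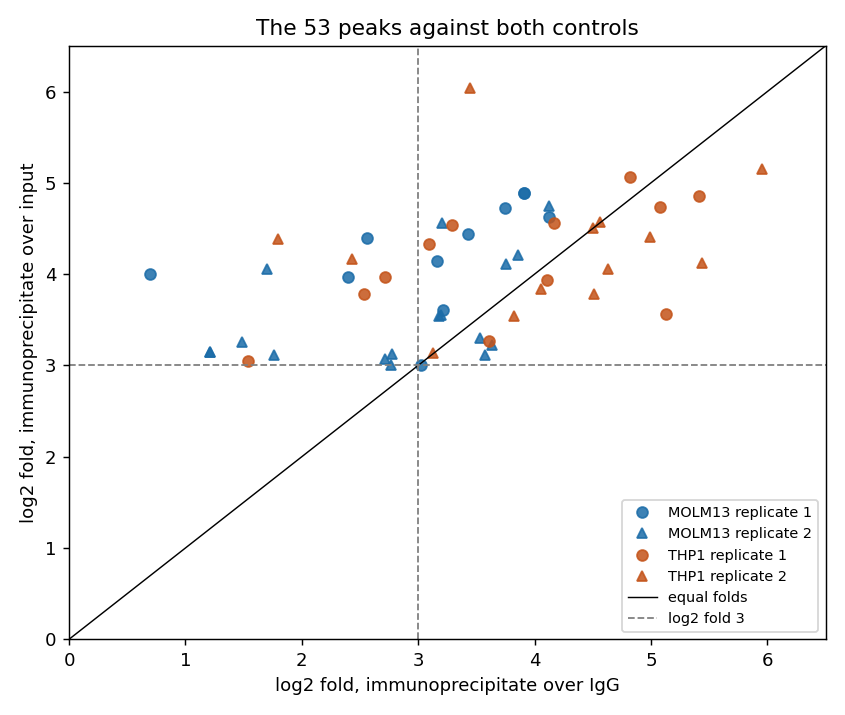
The 53 peaks by log2 fold over IgG (x axis) and over input (y axis), coloured by line, circles for replicate 1 and triangles for replicate 2. The solid line marks equal folds and the dashed lines a log2 fold of 3, and 37 peaks lie above the solid line. All peaks shown had to reach 3 over input, with no such limit over IgG. For 2 CFLAR peaks the IgG value is that of the overlapping cluster.

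The lines were set side by side at the 7 sites with a peak in every library. Log2 folds over input of the lines did not overlap at 2 of them (28.6%), against 48.8% of all 6767 such sites, made up of 12.4% higher and 36.4% lower in MOLM13. BCL2 site 2 was higher in MOLM13, by a difference of means of 1.01, and BCL2 site 4 was lower in MOLM13, with a difference of −0.32. For the other 5 sites the difference of means, MOLM13 minus THP1, ran from −1.13 at CFLAR site 2 to 0.070 at BCL2L11 site 1. Between replicates of a line, log2 folds of 3' UTR sites differed with an SD of 0.86 in MOLM13 and 0.88 in THP1, over 1695 and 1822 sites. Only sites past the threshold in both replicates enter these SDs. With 2 libraries a line, an exact permutation test cannot give a two-sided p below 0.333, so no site was tested.

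Over IgG, 8 of the 17 sites had both MOLM13 values below both THP1 values, 1 had them above, and 8 overlapped. Over all sites with clusters in every library, 42.9% lay lower in MOLM13 and 11.1% higher without overlap. The site with higher values in MOLM13 was MCL1 site 2. Those lower in MOLM13 were BCL2 sites 4 and 6, both BCL2L11 sites, MCL1 sites 1 and 3, CFLAR site 1 and PMAIP1 site 1. Taken over every cluster, the median IgG fold (log2) was 0.28 and −0.60 for MOLM13, and 0.0019 and 0.38 for THP1. The part of these library-wide levels in the values of single sites was not tested.

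Position differed between the genes. The 3' UTR sites of BCL2L1, PMAIP1 and MCL1 lay 40 to 1464 bases from the annotated 3' end and those of BCL2L11 at 1242 and 1482 bases. Those of BCL2 lay at 895 to 4922 bases, and those of CFLAR at 9529 and 11340. Of 2177 and 2374 reproducible 3' UTR peaks of replicate 1, the 2096 and 2285 that lay before the end of a RefSeq gene of their name entered a comparison. Their median distance was 984.5 bases in MOLM13 and 1196 in THP1, with an upper quartile of 2637 and 2921. The distances refer to the outermost end of the RefSeq gene on GRCh38.p14, and shorter transcripts can end closer to a site. The annotation had no second gene at any of the 17 sites, and 0 clusters were listed on the opposite strand there. The median peak width was 82 bases, against 74 for all 3' UTR peaks.

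**Figure D4:**
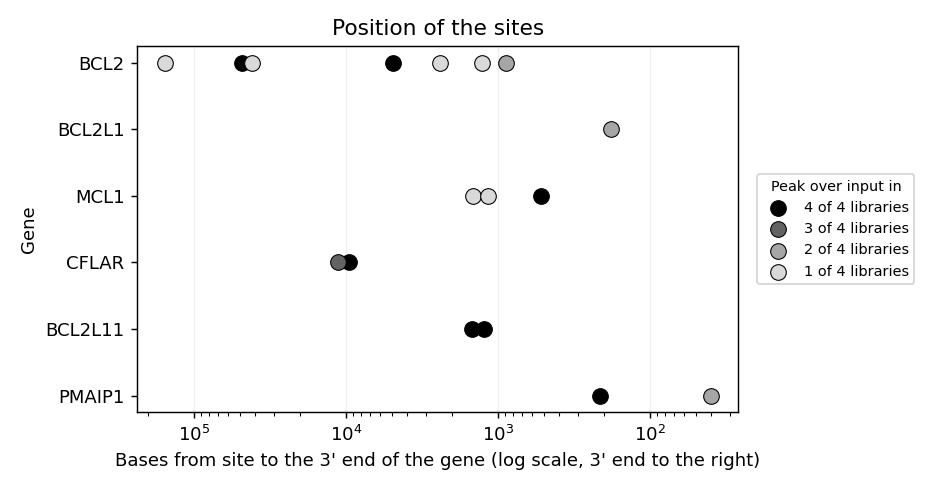
Distance in bases from each of the 17 sites to the annotated 3' end of its gene (x axis, log scale, 3' end to the right), by gene (rows), shaded by the number of libraries with a peak over input. The BCL2 sites span 895 to 156301 bases, whereas both BCL2L11 sites were present in all 4 libraries at 1242 and 1482 bases.

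Other genes of the same pathways were taken from 3 lists with 41 genes. In MOLM13, 13 of the 32 genes with clusters in both replicates had a reproducible peak over input (40.6%), against 27.7% of all genes with clusters. In THP1 it was 13 of 29 (44.8%), against 31%. In 3' UTRs the counts were 5 (15.6%) and 2 (6.90%), beside 9.61% and 9.77% of all genes.

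Of the other BCL2 family members, 4 of 12 genes with clusters had a reproducible peak over input in MOLM13 and 4 of 11 in THP1. BNIP3L, a mitophagy receptor, had a 3' UTR site in both lines, with 3.68 and 3.71 over input for MOLM13, and 4.95 and 4.15 for THP1, and with 2.70 and 3.35 over IgG for MOLM13, and 5.29 and 4.46 for THP1. BAX, a pore-forming effector, had a 3' UTR site in MOLM13 (3.92 and 3.47 over input, 2.55 and 2.06 over IgG) and no reproducible one in THP1.

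In the death receptor list, in which 5 of 11 genes had such a peak in MOLM13 and 6 of 10 in THP1, TNFRSF10B was the only gene with a reproducible 3' UTR site. This gene encodes a receptor for the death ligand TRAIL. Its log2 folds over input were 5.33 and 7.12 for MOLM13, and 6.40 and 6.03 for THP1. Over IgG it reached 6.11 and 6.18 for MOLM13, and 5.15 and 5.56 for THP1.

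The caspases and apoptosome components had reproducible peaks in 4 of 9 genes with clusters in MOLM13 and 3 of 8 in THP1. In 3' UTRs these were APAF1, the apoptosome scaffold (3.24 and 4.51 over input, 2.67 and 3.16 over IgG), and CYCS, which encodes cytochrome c (3.52 and 4.08 over input, 3.54 and 2.31 over IgG), both in MOLM13. None of this list had one in THP1.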

How the data were processed

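The authors' deposited input tables and IgG lists give, per immunoprecipitate, a log2 fold and a −log10 p for each peak, with a separate file per library. Per the labels' protocols, cells were irradiated at 254 nm (400 mJ/cm2), and material of 30 to 105 kDa was excised. Per the submitters' processing notes, cutadapt 1.14, STAR 2.5.0c, Picard 2.6.0 and edgeR were used, with roles not stated. These sources do not state the peak caller, the scaling or the test behind the p, nor whether both THP1 folds rest on its 1 input. The build hg38 was taken from the position of all 53 peaks inside their RefSeq genes of GRCh38.p14.

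IgG lists were tied to input tables by identical cluster coordinates, shared by 14396 to 19306 peaks per pair. For 2 peaks without an identical cluster, the overlapping cluster of highest −log10 p was used. Peaks were reproducible when a peak of the other replicate overlapped by 1 base or more on the same strand. Genes with clusters were those of RefSeq with a cluster on either strand in each of the 2 libraries (13877 for MOLM13, 14438 for THP1). Calculations used Python 3.11.15 and pandas 2.3.3, and interval steps were tested on simulated data. Named genes were the 6 members and, per list, up to 3 genes with the highest lower-replicate fold at a reproducible 3' UTR site. The members and lists were chosen with earlier results of these data known. No test was run, since peaks are not replicates, and no site sequence is shown because no genome was used here. The alternatives tried were other thresholds, overlaps, merging, single replicates and assignment by coordinates.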

Additional observations from a re-analysis of the deposited data

How the results depend on the processing

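Counts were recomputed under 47 alternatives and stayed within 1.5 times in 30 of them. When a log2 fold of 4 over input was required, the reproducible peaks of the 6 genes, counted in replicate 1, fell to 2 in MOLM13 and 6 in THP1, against 8 and 10 at the threshold of 3. Genes with a reproducible 3' UTR peak then fell to 2 in MOLM13 and 4 in THP1, against 5 in each line. The MOLM13 peaks shared with THP1 fell to 2, against 8. Sites of all 4 libraries fell to 2, against 7 (this last alternative was added after seeing the data). At 5, 0 reproducible peaks and 0 such genes were left in either line. In MOLM13, peaks also enriched over IgG in both replicates numbered 4, and became 7, 1 and 2 with an IgG log2 fold of at least 2, an IgG log2 fold of at least 4 and an IgG −log10 p of at least 5. Of the 13 other apoptosis genes per line, 5 in MOLM13 and 2 in THP1 remained with 3' UTR peaks alone. With IgG as a second control, 7 remained in MOLM13 and 9 in THP1. In single libraries, peaks over input numbered 11 to 17 in MOLM13 and 12 to 13 in THP1, those also enriched over IgG 6 to 7 and 8 to 10, and genes with a 3' UTR peak 5 to 6 in each line. Without MOLM13 replicate 1 the peaks over input were 17, and without MOLM13 replicate 2 or THP1 replicate 1 BCL2L1 was counted as well. No paired analysis was possible because the counts come from no test. Read depth is unknown, so no interval or floor is given.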

Other observations

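Some apoptosis genes held many peaks outside 3' UTRs, and they are named after their values were seen. Over the 4 libraries BCL2L13, a mitochondrial relative of BCL2, had 55 peaks and BID, a death activator cleaved by the initiator caspase, had 53, none of them in a 3' UTR. APAF1 had 50, of which 6 were in the 3' UTR. The 6 genes described above had 53 peaks together, 46 of them in 3' UTRs. Peaks of 1 site in several libraries enter these counts separately, and no share over all genes is given. In each line 4 of the other BCL2 family genes, BID and BCL2L13 among them, had a reproducible peak. Of these, 1 in MOLM13 and 3 in THP1 also passed over IgG in both replicates. No peak over input named the pore-forming gene BAK1, the survival gene BCL2A1, the death activators BBC3, BMF, BAD and HRK, or the death receptor gene FAS. The lack of a peak over input does not show that a gene was not bound.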
